A study of Mus musculus with 23 samples.

Results

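Caloric restriction in skeletal muscle of NZO mice was described through 114 alternative splicing events in 102 genes, out of 265 events that the authors deposited for the whole series. The events are all those of the block that sets caloric restriction against ad libitum feeding, and none was chosen or left out here by its level. The tested mice were male NZO/HIBomDife mice under caloric restriction (3 samples), and the controls were male NZO/HIBomDife mice fed ad libitum (5 samples). NZO is an inbred polygenic strain that becomes obese and can develop diabetes. For side-by-side values, the lists for intermittent fasting in the same strain (5 samples, with the ad libitum mice as its controls too) and for exercise against sedentary C57BL/6J males (5 samples each) were also used. The sources used here do not give the age of the mice, the degree and length of the restriction, the hours since the last meal or the muscle that was sampled. Another label calls all NZO samples intermittent fasting, those fed ad libitum too, and was not used for grouping.

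Alternative splicing joins the exons of one pre-mRNA in more than one way. A skipped exon is a whole exon that is either kept or left out, and a retained intron stays in the mature RNA. Alternative 3' and 5' splice sites move the edge of an exon, the first at the acceptor before it and the second at the donor after it. In coding sequence, a stretch with a length that is a multiple of 3 can be added or dropped without shifting the reading frame, while other lengths shift it. Skeletal muscle is known for extensive alternative splicing, in particular of the giant proteins of the sarcomere.

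The inclusion level (PSI, percent spliced in) is the share of transcripts that contain the stretch, on a scale from 0 to 1. Each event has 1 level for caloric restriction and 1 for ad libitum feeding, both the authors' own values for a group. Levels of single mice were not used here, so no standard deviation, no test over mice and no read depth can stand beside any level, and whether the mice of the groups overlap cannot be seen. On this list no difference is smaller than 0.2 in size, and in the authors' deposited table no probability of a difference is under 0.9 (this is not a p-value). Events that were examined by the authors and not listed were not used here. Differences below are caloric restriction minus ad libitum. Muscle was measured as a whole tissue, so a different splicing choice within fibres and a different mix of cells cannot be told apart, and neither can fewer cells of a type and less RNA per cell.

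The table holds no expression levels, so the tissue could not be checked against marker levels. Of 16 markers of the muscle fibre, Neb had a listed event and the others had none. Of 27 markers of endothelium, immune cells, adipocytes, fibroblasts, Schwann cells, satellite cells and smooth muscle, 0 had a listed event, which says nothing about their expression.

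Positions are in mm10, taken as 1-based with the last base included. For 3 events the sequence at an end of the listed stretch could be read from RefSeq promoter windows of the same assembly (GRCm38.p6), and the letters are shown because they place the stretch on the splice signals. Capitals mark bases inside the listed stretch, lower case marks bases outside it, and all are written on the gene's own strand. The 4 ends were the 5' end of a retained intron of Hmgn3, the 5' end of an alternative 5' splice site stretch of Zbtb25, and both ends of a skipped exon of Rnf146.
Hmgn3 intron, 5' end (chr9:83110973-83111002, minus strand): agttgaagagGTACTTTCCACAAACACCTC
Zbtb25 stretch, 5' end (chr12:76369415-76369444, minus strand): tctggGTAAGCAACGCGGCCCTGCCCCTGT
Rnf146 exon, 5' end (chr10:29361336-29361365, minus strand): ttttttttttttttttaaagAGAAAGGGCT
Rnf146 exon, 3' end (chr10:29361265-29361294, minus strand): CTATAATTAGgtaagatgtttccccactgt

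The Hmgn3 intron opens with GT, the usual first bases of an intron. The Rnf146 exon is preceded by AG after a run of T and followed by GT, the usual acceptor and donor letters. The Zbtb25 stretch itself begins with GT, the letters of a donor at the upstream of its alternative ends. It begins after 25 bases of transcript from one of the annotated starts of Zbtb25. All 4 of the 4 ends carried the usual dinucleotide under the counting from 1.

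Over the whole list, 60 events had higher inclusion under caloric restriction than ad libitum and 54 had lower inclusion, so 52.6% were higher (95% exact binomial interval 43.1% to 62.1%, over listed events only). Without the 9 exons of Neb, described below, the share was 48.6% of 105 events. The median absolute difference was 0.352, with quartiles of 0.271 and 0.446. Differences of 0.5 or more were listed for 15 events, of which 9 were higher and 6 lower. At 60 of the 114 events the level lay on the other side of 0.5 under caloric restriction, so that the form in the majority was a different one, 25 towards inclusion and 35 towards exclusion. The starting level limits what could be listed: 25 events with an ad libitum level under 0.2 could be listed as higher only, and 24 with a level over 0.8 as lower only. Among the 65 events between those levels, 35 were higher and 30 lower.

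**Figure D1:**
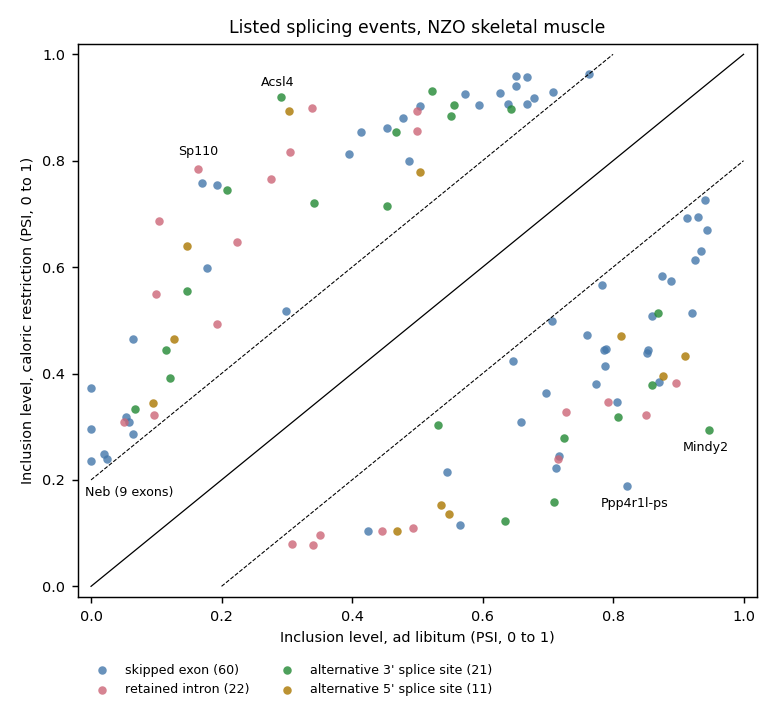
Each point is 1 of the 114 listed events, with its inclusion level ad libitum on the horizontal axis and under caloric restriction on the vertical axis, coloured by event type. The solid line marks equal levels and the dashed lines a difference of 0.2, the smallest that was listed. The points lie on both sides, 60 above and 54 below, with 9 Neb exons at the left edge.

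Skipped exons were the most frequent type (60 events in 52 genes, 30 higher and 30 lower), followed by retained introns (22 events, 12 higher and 10 lower), alternative 3' splice sites (21 events, 13 higher and 8 lower) and alternative 5' splice sites (11 events, 5 higher and 6 lower). The median absolute difference was 0.313 for skipped exons, 0.412 for retained introns, 0.387 for alternative 3' splice sites and 0.385 for alternative 5' splice sites. In the reference, 97 of the 102 genes are protein-coding, 3 are long non-coding RNAs, 1 is a transcribed pseudogene and 1 symbol (2610021A01Rik) was not matched. All 113 events of matched genes lay within the span of their gene, and 9 of the 114 stretches also overlapped the span of another gene. The sources used here do not say whether counting used strand, so at those 9 the reads of the genes cannot be told apart.

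Retained introns included an interferon-induced gene, a channel subunit and several regulators of RNA. Sp110, an interferon-inducible nuclear body protein, had the largest difference among them, 0.62, for an intron of 1162 nucleotides. Its level was 0.785 under caloric restriction, against 0.163 ad libitum. Under caloric restriction most Sp110 transcripts were thus counted as containing this intron, and ad libitum most were counted as spliced there.

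Abcc8, the sulfonylurea receptor subunit of an ATP-sensitive potassium channel, had an intron level of 0.899 under caloric restriction and 0.338 ad libitum, and this stretch overlaps the predicted gene Gm51481. For Csf2ra, a subunit of the receptor for the cytokine GM-CSF, the levels were 0.766 and 0.276 for an intron of 106 nucleotides. Noct, a rhythmically expressed phosphatase of the nocturnin family, had the longest stretch of the list, 3952 nucleotides (chromosome 3, 51243853 to 51247804), with 0.647 under caloric restriction and 0.224 ad libitum. These 3 introns thus lay above 0.5 under caloric restriction and below it ad libitum. An intron of Mrpl23, a protein of the mitochondrial ribosome, stayed in the minority in both groups, at 0.322 and 0.0969. Prpf4b encodes a spliceosomal kinase, and its intron, 92.3% along the gene span, was at 0.894 and 0.499.

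Among the 10 retained introns with lower inclusion, the largest difference was in Snrnp48, a protein of the minor spliceosome, which removes a rare class of introns. Its stretch of 86 nucleotides (chromosome 13, 38216239 to 38216324) had a level of 0.322 under caloric restriction and 0.850 ad libitum. Hmgn3, the nucleosome-binding protein with the intron shown above, had 0.239 and 0.715. That intron overlaps the predicted gene Gm2065. Bcdin3d, an RNA methyltransferase, had 0.346 and 0.792 over an intron of 3376 nucleotides. Fmo2, a flavin monooxygenase that oxidises xenobiotics, had 0.328 and 0.728. In each of these 4 genes the intron was in the minority under caloric restriction and in the majority ad libitum. Adck5, a mitochondrial kinase-like protein, was at 0.109 and 0.494, and Stap2, a signalling adaptor, at 0.0774 and 0.340.

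Stretches of 200 nucleotides or more made up 13 of the 22 retained introns, and 9 of these 13 were higher, while 3 of the 9 shorter ones were higher. The share that was higher over all listed events was 52.6%, and the intervals of these shares overlap (95% exact binomial, 38.6% to 90.9% for the longer and 7.49% to 70.1% for the shorter).

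**Figure D2:**
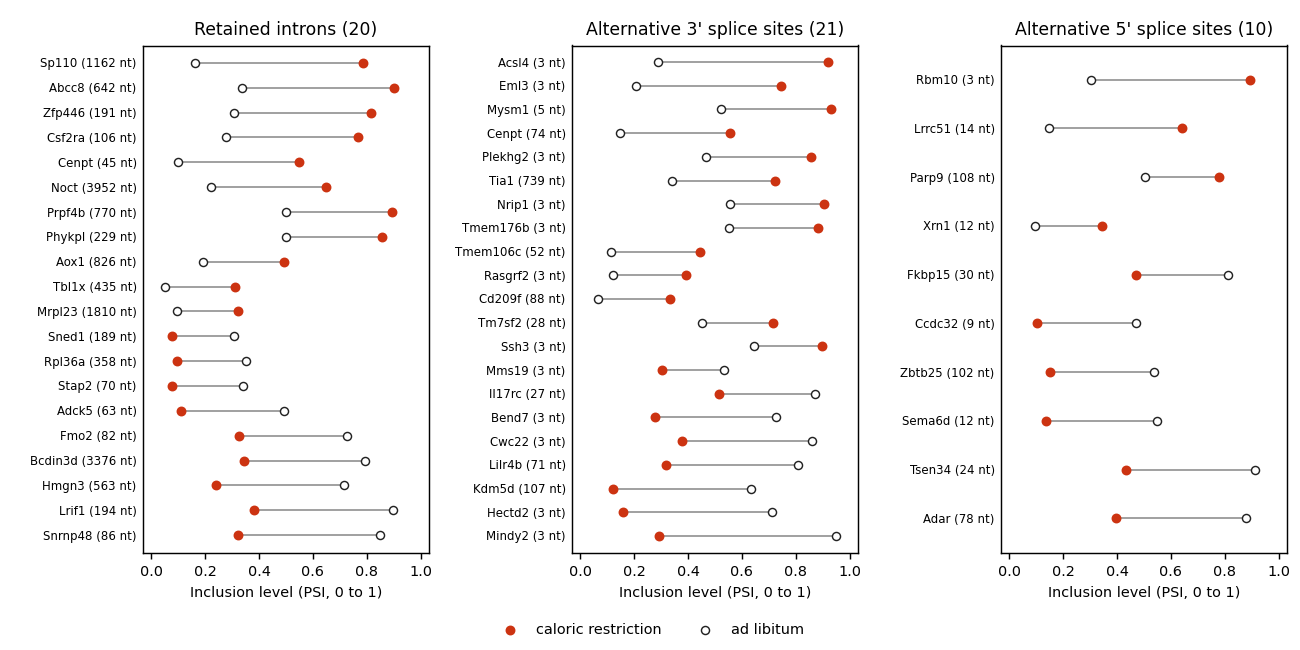
Inclusion level (PSI, horizontal axis) of 20 retained introns and 31 alternative splice sites of the list, with filled points for caloric restriction and open points for ad libitum, joined by a line. Genes run from the largest higher to the largest lower difference, with the length of the stretch in nucleotides. The Sp110 intron lies at 0.785 under caloric restriction and 0.163 ad libitum, and that of Snrnp48 at 0.322 and 0.850.

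Alternative 3' splice site stretches often had the shortest length that is a multiple of 3. Whether these stretches are coding was not determined here, and their acceptor letters were not read. In 12 of 21 events (57.1%, 95% exact binomial interval 34.0% to 78.2%) the stretch was exactly 3 nucleotides long, the spacing of tandem acceptors, which in coding sequence lengthen or shorten the protein by 1 residue. The same length was found in 7 of 13 such events under intermittent fasting and in 6 of 11 after exercise. Inclusion was higher at 7 and lower at 5 of the 12, where 52.6% of the whole list was higher.

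The 3-nucleotide events covered a wide range of functions. Acsl4, an enzyme that activates arachidonic and other long-chain fatty acids, had 0.921 under caloric restriction and 0.290 ad libitum. Eml3, a microtubule-binding protein, had 0.746 and 0.209. Plekhg2, an exchange factor for small GTPases, had 0.854 and 0.468. Nrip1, a nuclear receptor corepressor that represses oxidative metabolism genes in muscle and fat, had 0.906 and 0.556. In each of these genes the longer form was the major one under caloric restriction. Tmem176b, a membrane protein, had 0.883 and 0.552, and Ssh3, of the slingshot family of cofilin phosphatases, had 0.897 and 0.643. Rasgrf2, a Ras exchange factor, remained mostly without the 3 nucleotides, at 0.391 and 0.122.

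The other direction held for 5 of the 3-nucleotide events. Mindy2, a deubiquitinase that trims long ubiquitin chains, had 0.294 under caloric restriction and 0.947 ad libitum, the largest difference of the list in either direction (-0.65). Hectd2, a ubiquitin ligase, had 0.158 and 0.710, and Cwc22, a splicing factor that also links splicing to the exon junction complex, had 0.379 and 0.860. Bend7, a BEN-domain protein, had 0.279 and 0.725. Mms19, which helps insert iron-sulfur clusters into DNA repair enzymes, had 0.304 and 0.532. In these 5 genes the form without the 3 nucleotides was the majority under caloric restriction.

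The 9 longer alternative 3' splice site stretches measured between 5 and 739 nucleotides, and 8 of the 9 have lengths that are not a multiple of 3. Kdm5d, a histone demethylase encoded on the Y chromosome, had 0.122 under caloric restriction and 0.635 ad libitum for a stretch of 107 nucleotides (chromosome Y, 927603 to 927709). Lilr4b, an immunoglobulin-like receptor of immune cells, had 0.319 and 0.808, but it belongs to a family of close copies, so its level is uncertain. Both stretches were thus mostly left out under caloric restriction and mostly kept ad libitum. Mysm1, a deubiquitinase of histone H2A, had 0.931 and 0.522 for a stretch of 5 nucleotides. The longest stretch, 739 nucleotides in Tia1, an RNA-binding protein of stress granules that also promotes the use of weak 5' splice sites, had 0.721 and 0.341.

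Alternative 5' splice sites were few, and 9 of the 11 stretches have a length that is a multiple of 3 (81.8%, 95% exact binomial interval 48.2% to 97.7%). Rbm10, an RNA-binding regulator of exon skipping, had the largest difference, with 3 nucleotides included at 0.893 under caloric restriction and 0.303 ad libitum (chromosome X, 20645595 to 20645597). Xrn1, the exonuclease that degrades decapped mRNA, had 0.345 and 0.0943. Of both genes, only Rbm10 had the stretch in the majority under caloric restriction.

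Adar, the enzyme that converts adenosine to inosine in double-stranded RNA, had 0.395 under caloric restriction and 0.877 ad libitum for a stretch of 78 nucleotides (chromosome 3, 89745524 to 89745601). Tsen34, a catalytic subunit of the endonuclease that splices tRNA, had 0.434 and 0.910 for 24 nucleotides. Zbtb25, the zinc finger protein with the donor shown above, had 0.152 and 0.537. Adar, Tsen34 and Zbtb25 thus had the stretch in the minority under caloric restriction and in the majority ad libitum. Sema6d, a transmembrane semaphorin, had 0.136 and 0.548, Ccdc32 had 0.104 and 0.469, and Fkbp15, a protein of endosome trafficking, had 0.471 and 0.813.

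Skipped exons had a length that is a multiple of 3 in 42 of 60 events (70.0%, 95% exact binomial interval 56.8% to 81.2%). Without the 9 exons of Neb it was 33 of 51 (64.7%, 50.1% to 77.6%). The corresponding shares were 17 of 35 (48.6%, 31.4% to 66.0%) under intermittent fasting and 12 of 30 (40.0%, 22.7% to 59.4%) after exercise, both without Neb. The intervals overlap, and the difference between the lists was not tested. Exons of a length that is a multiple of 3 numbered 22 higher and 20 lower, and those of other lengths 8 higher and 10 lower. Without Neb, the exons of a length that is a multiple of 3 numbered 13 higher and 20 lower. In the reference, 55 of the 60 exons are in protein-coding genes, and 2610021A01Rik was not matched. The exons of Gm12002, B230311B06Rik and BC065397 (long non-coding RNAs) and of the pseudogene Ppp4r1l-ps all have other lengths. Of these, Gm12002 was higher and the others were lower. Whether each exon of the protein-coding genes is coding was not determined here.

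**Figure D3:**
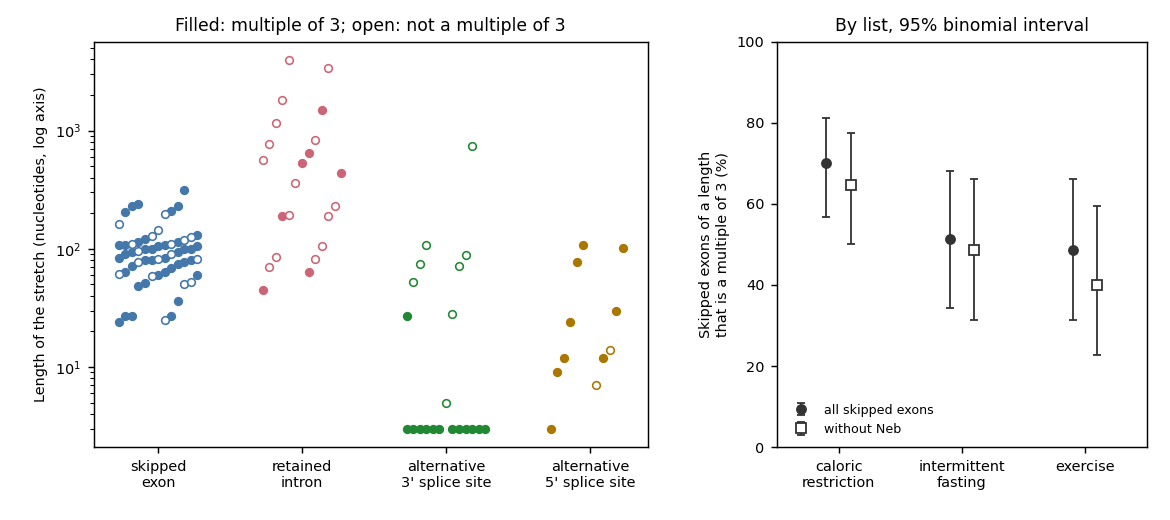
Left, length of each of the 114 listed stretches (nucleotides, log axis) by event type, filled where it is a multiple of 3, with 12 alternative 3' splice site stretches on the line at 3 nucleotides. Right, percentage of skipped exons with a length that is a multiple of 3 in the lists for caloric restriction, intermittent fasting and exercise, with and without Neb, and 95% exact binomial intervals, which overlap.

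The skipped exons with the largest higher inclusion were found in Lrrc51 (0.759 under caloric restriction, 0.170 ad libitum) and in Gm12002, a long non-coding RNA whose exon overlaps the span of Cobl (0.755 and 0.192). Slx1b, the nuclease subunit of a complex that resolves DNA junctions, had 0.854 and 0.414. Sema3f, a secreted semaphorin, had 0.599 and 0.177 for an exon of 93 nucleotides (chromosome 9, 107691356 to 107691448). In all 4 the exon was in the majority under caloric restriction and in the minority ad libitum. Zcchc2, a zinc-knuckle protein, had 0.813 and 0.395. Ppm1b, a protein phosphatase that acts on stress-activated kinases, had 0.862 and 0.454 for an exon of 48 nucleotides near the 3' end of the gene span (98.6% along).

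Among skipped exons with lower inclusion, the pseudogene Ppp4r1l-ps led with 0.189 under caloric restriction and 0.821 ad libitum, a level that is uncertain because reads can be shared with the parent gene. Rnf111, a ubiquitin ligase that recognises SUMO chains and acts in TGF-beta signalling, had 0.223 and 0.712. Its exon of 63 nucleotides (chromosome 9, 70502940 to 70503002) lies at the start of the gene span, 1.11% along. Ubn2, a subunit of a histone chaperone complex, had 0.385 and 0.871. Pikfyve, the kinase that makes a phosphoinositide of late endosomes and takes part in glucose transporter traffic, had 0.245 and 0.718 for an exon of 84 nucleotides (chromosome 1, 65264347 to 65264430). Inclusion thus changed sides of 0.5 in all 4. Exoc2, a subunit of the exocyst that tethers vesicles to the plasma membrane, had 0.116 and 0.565. The non-coding B230311B06Rik had 0.346 and 0.807.

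**Figure D4:**
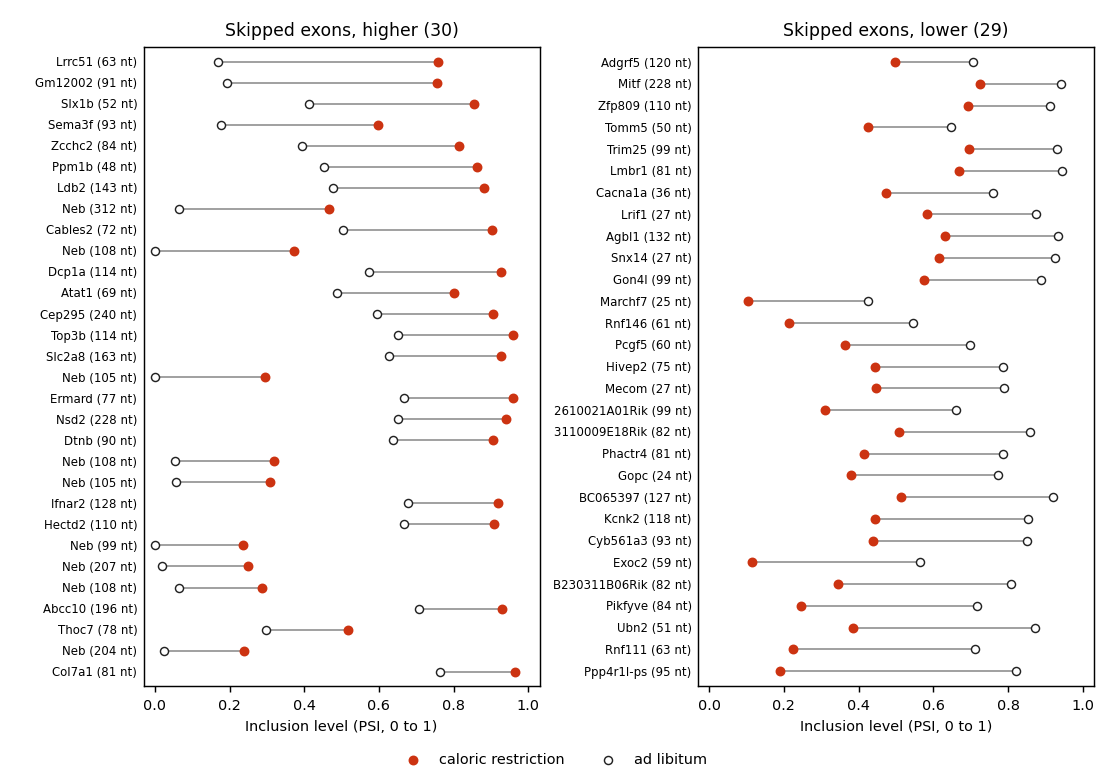
Inclusion level (PSI, horizontal axis) of 59 skipped exons of the list, 30 with higher inclusion on the left and 29 with lower inclusion on the right, with filled points for caloric restriction and open points for ad libitum. The 9 Neb exons start at or below 0.0646 ad libitum, and most other exons with higher inclusion start above 0.2.

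The shortest exon on the list, 24 nucleotides in Gopc, a Golgi protein that sorts membrane proteins, had 0.380 under caloric restriction and 0.774 ad libitum. Skipped exons of at most 30 nucleotides numbered 5, and all 5 of these had lower inclusion, where 52.6% of all events were higher. Of all skipped exons, 30 of 60 were higher, and without Neb 21 of 51 (41.2%). Besides Gopc, the exons of at most 30 nucleotides were in Mecom (0.446 and 0.788), Snx14 (0.614 and 0.925), Lrif1 (0.582 and 0.875) and Marchf7 (0.104 and 0.424). Mecom is a zinc finger transcription factor, Snx14 a sorting nexin, Lrif1 a nuclear protein that binds heterochromatin protein HP1, and Marchf7 a ubiquitin ligase. Of these 5 exons, 4 have a length that is a multiple of 3. The limit of 30 nucleotides, and with it Mecom and Marchf7, was chosen after the values were seen.

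Neb, which encodes the thin-filament ruler nebulin, held 9 of the 60 skipped exons, between 99 and 312 nucleotides long and all in the first part of the gene span, from 17.4% to 46.9% along. Their levels were between 0.235 and 0.465 under caloric restriction, against 0.000324 to 0.0646 ad libitum, so they could be listed as higher only. The exon of 312 nucleotides (chromosome 2, 52243842 to 52244153) had the largest difference, 0.40, with a level of 0.465 under caloric restriction and 0.0642 ad libitum. It remained below 0.5, so that the form without the exon was the majority in both groups, as at the other 8. Nebulin is made of repeats, and the sources used here do not say how reads were divided among its exons, so these levels are uncertain. The exons that start at 52302442 and 52303631 also overlap the span of 4930573O16Rik. The lowest ad libitum levels, 0.000324, 0.000326 and 0.000329, are nearly equal, and what sets a level this near 0 was not determined. Higher inclusion of Neb exons was also listed under fasting and after exercise. Under fasting, a shared exon had 0.229 against 0.000334 ad libitum, and another exon had 0.544 against 0.244. After exercise, the listed Neb exons were other ones, all higher, with differences from 0.20 to 0.35. The largest of these had 0.420 in exercised and 0.0720 in sedentary mice.

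For a reading by function, 23 gene lists were set up, and 15 of them had a member with an event. In all, 34 genes with 43 events belonged to a list, 25 with higher and 18 with lower inclusion, where 52.6% of all events were higher. Without the 9 Neb exons, 34 list events were left, 16 higher and 18 lower, so the larger side turned. The 5 marker lists of other cell types had no event, nor did the lists for insulin signalling and glucose metabolism, autophagy and lysosome, and the circadian clock. The lists hold genes chosen by name, some by a shared prefix, so they miss genes of the same function, and their counts describe the lists and not the whole class. Whether any list is over-represented could not be asked of called events alone.

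The list of ubiquitin ligases, deubiquitinases and proteasome subunits had 5 genes with 6 events, 1 higher and 5 lower, against 52.6% higher over all events. Its median absolute difference was 0.410, against 0.352 over the whole list. Besides Mindy2, Rnf111 and the 3-nucleotide event of Hectd2, lower inclusion was listed for the exon of Rnf146 shown above and for an exon of Trim25. Rnf146 is a ligase that acts on proteins carrying poly(ADP-ribose), and its exon had 0.215 under caloric restriction and 0.546 ad libitum. Trim25, a ligase of antiviral signalling, had 0.695 and 0.930. The 1 higher event was a skipped exon of Hectd2 (0.907 and 0.668). The list does not hold the deubiquitinase Mysm1, which was higher, or the ligase Marchf7, which was lower.

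The RNA-binding and spliceosome list had 4 genes with 1 event each, higher in Prpf4b, Rbm10 and Tia1 and lower in Cwc22, all described above, where 52.6% of all events were higher. The 4 events are a retained intron, an alternative 5' splice site and alternative 3' splice sites of 739 and 3 nucleotides. The list does not hold Snrnp48, Tsen34 and Bcdin3d, which act on RNA and were lower, or Dcp1a, Thoc7 and Xrn1, which were higher. The interferon-induced list had Sp110 and Parp9 with higher and Adar with lower inclusion. Parp9, a partner of the ubiquitin ligase Dtx3l in interferon responses, had 0.779 under caloric restriction and 0.503 ad libitum for 108 nucleotides at a 5' splice site. Its probability in the authors' deposited table, 0.904, is close to the limit of 0.9.

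The chromatin list had Hmgn3, Kdm5d and a skipped exon of Pcgf5, a subunit of Polycomb complexes (0.363 under caloric restriction, 0.697 ad libitum), and all 3 were lower. The list does not hold the histone modifiers Nsd2 and Mysm1, which were both higher, so the direction is not that of histone modifiers as a class. The vesicle trafficking list had Exoc2, Gopc and Snx14, also all lower. The solute carrier and ABC transporter list had 3 events, all higher. Besides Abcc8 these were skipped exons of Slc2a8, an intracellular hexose transporter (0.927 and 0.627), and of Abcc10, a drug efflux pump (0.930 and 0.708). Over the whole list, 52.6% of events were higher and 47.4% lower.

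In the zinc finger list, 1 event was higher and 3 were lower, where 52.6% of all events were higher. The list does not hold Mecom, which was lower, or the zinc-knuckle protein Zcchc2, which was higher. The higher event on the list was a retained intron of Zfp446 (0.817 under caloric restriction, 0.306 ad libitum). Lower inclusion was listed for Zbtb25, for an exon of Hivep2, a large DNA-binding protein (0.444 and 0.786), and for an exon of Zfp809, a silencer of retroviral elements (0.692 and 0.913). The fatty acid and sterol list included Acsl4, described above.

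Single exons were listed in the dystrophin and centrosome lists, and the mitochondrial list had an exon of Tomm5 besides the intron of Mrpl23. Dtnb, a member of the dystrophin-associated complex, had 0.906 under caloric restriction and 0.639 ad libitum for an exon of 90 nucleotides (chromosome 12, 3732618 to 3732707). Tomm5, a subunit of the pore that imports proteins into mitochondria, had 0.424 and 0.647. Cep295, a protein of centriole assembly, had 0.905 and 0.595. The Dtnb exon, a multiple of 3 long, stayed in the majority in both groups, while the Tomm5 exon of 50 nucleotides did not.

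Apart from Neb, 4 genes had 2 events. In Cenpt, a kinetochore protein that binds centromeric DNA, a retained stretch of 45 nucleotides (chromosome 8, 105849788 to 105849832) directly adjoins an alternative 3' splice site stretch of 74 nucleotides (105849714 to 105849787), with 0 nucleotides between them. Both were higher, at 0.550 under caloric restriction against 0.0993 ad libitum and at 0.555 against 0.147. In Lrif1 the skipped exon of 27 nucleotides directly adjoins a retained intron of 194 nucleotides (chromosome 3, 106733143 to 106733336), and both were lower, the intron at 0.382 and 0.897. Adjoining stretches share reads, so each of these pairs is 1 observation rather than 2. The events of Lrrc51 lie 12183 nucleotides apart, and its 5' splice site stretch of 14 nucleotides was also higher (0.640 and 0.147). The events of Hectd2 lie 4242 nucleotides apart and were opposite in direction.

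Some events outside the rule for named genes are given because they fall into the same functions, and they were chosen after their values were seen. Tm7sf2, a reductase of cholesterol synthesis, had a 3' splice site stretch of 28 nucleotides at 0.715 under caloric restriction and 0.453 ad libitum. Dcp1a, a decapping factor of mRNA, had an exon at 0.926 and 0.574, and Thoc7, a subunit of the mRNA export complex THO, had an exon at 0.518 and 0.298. Ifnar2, a subunit of the type I interferon receptor, had an exon of 128 nucleotides at 0.918 and 0.679. Ldb2, a cofactor of LIM-domain proteins, had an exon at 0.880 and 0.478. Rpl36a, a ribosomal protein whose gene has many processed copies, had an intron at 0.0970 and 0.351, an uncertain level.

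Further exons and introns outside that rule, also chosen after their values were seen, are given here. Kcnk2, a potassium leak channel, had an exon at 0.444 under caloric restriction and 0.854 ad libitum. Cacna1a, the pore subunit of a neuronal calcium channel, had an exon of 36 nucleotides at 0.473 and 0.760, which overlaps the span of Gm39212. Both exons were thus in the minority under caloric restriction and in the majority ad libitum. Phactr4, a regulator of protein phosphatase and actin, had 0.413 and 0.788. Nsd2, a histone methyltransferase, had 0.941 and 0.652, in the majority in both groups. Top3b, a topoisomerase that also acts on RNA, had 0.960 and 0.651. The intron of Aox1, an aldehyde oxidase, had 0.493 and 0.193, and that of Tbl1x, a subunit of corepressor complexes, had 0.309 and 0.0504.

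Several listed genes are best known from cells other than the muscle fibre. Csf2ra, Lilr4b, Cd209f and Il17rc are receptors known from immune or epithelial cells, and Adgrf5 is an adhesion receptor known from lung epithelium and endothelium. Cd209f had 0.333 under caloric restriction and 0.0672 ad libitum at a 3' splice site, and it has close copies. Il17rc had 0.514 and 0.869 for a stretch of 27 nucleotides. Cd209f and Il17rc were named after their values were seen. The part of other cells in these levels was not tested.

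The smallest listed differences were those of Col7a1, the collagen of anchoring fibrils (0.964 under caloric restriction, 0.763 ad libitum), Adgrf5 (0.499 and 0.706) and Mitf, a transcription factor of the MiT family (0.726 and 0.941). They lie just inside the limit of 0.2, and 37 of the 114 events had differences under 0.3. In the authors' deposited table, 15 events have a probability of 0.99 or more and 66 have one under 0.95. The first group includes the events of Mindy2, Acsl4, Hectd2 at its 3' splice site, Snrnp48, Ppp4r1l-ps, Abcc8, Lrrc51 at its exon, Sp110, Cenpt at its intron and 5 of the 9 Neb exons. The authors' class of confidence is 1 for 100 events and 2 for 14. Those in class 2 include the events of Rbm10, Abcc8, Zfp446, Slx1b, Stap2, Mms19, Nsd2, Dcp1a, Ifnar2, Kcnk2 and Phactr4.

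Most events were listed for caloric restriction and for neither of the other interventions: 102 of 114 events and 84 of 102 genes. An event that is missing from a list may only have missed the authors' limits there. With intermittent fasting, 10 events were shared at the same position and type (8.77% of the events under caloric restriction, 12.7% of those under fasting). Both comparisons use the same ad libitum mice, so only the levels are set side by side. For Stap2 the level was 0.0774 under caloric restriction, 0.0746 under fasting and 0.340 ad libitum, and for Pcgf5 it was 0.363, 0.372 and 0.697. The levels of the diets were nearly equal at both. For caloric restriction, the authors' probability was 0.905 for Stap2, close to the limit of 0.9, and 0.976 for Pcgf5. For the 3' splice site of Hectd2 they were 0.158, 0.236 and 0.710, for Gopc 0.380, 0.331 and 0.774, and for Cwc22 0.379, 0.243 and 0.860. Over the 10 events, the levels of the diets lay between 0.00271 and 0.144 apart, the most for an exon of Neb.

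**Figure D5:**
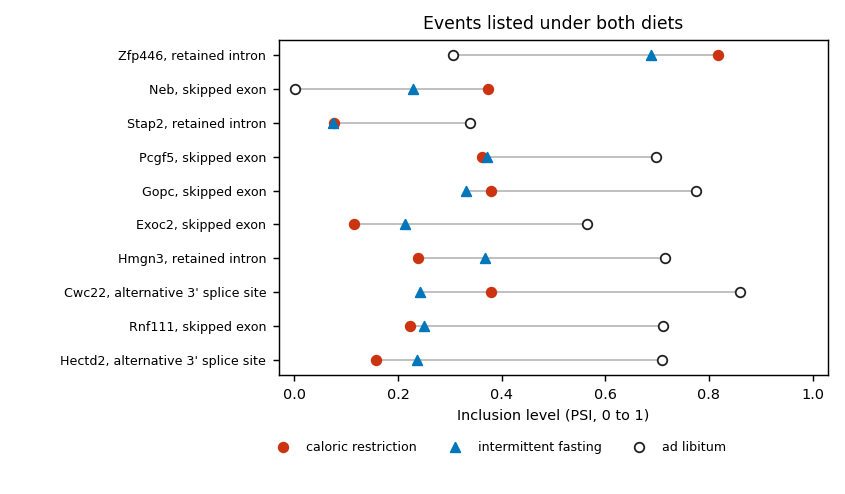
Inclusion level (PSI, horizontal axis) of the 10 events listed under both diets, with circles for caloric restriction, triangles for intermittent fasting and open circles for ad libitum. The levels of the diets lie within 0.144 of each other at every event, and the ad libitum mice are the same in both comparisons.

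With exercise, which was measured in C57BL/6J mice with their own controls, 3 events were shared (2.63% of the events under caloric restriction, 4.17% of those after exercise). The exon of Hectd2 had 0.907 under caloric restriction against 0.668 ad libitum, and 0.905 after exercise against 0.655 in sedentary mice. The levels were thus almost the same in both experiments. For caloric restriction, the authors' probability for this exon, 0.902, is close to the limit of 0.9. The retained intron of Zfp446 had 0.817 under caloric restriction against 0.306 ad libitum, and 0.880 after exercise against 0.503 in sedentary mice. It was also listed under fasting (0.688 against 0.306 ad libitum), and it was the only event on every list. The 5' splice site of Parp9 was the 1 event that ran the other way after exercise, with 0.496 in exercised and 0.804 in sedentary mice. The listed differences of Parp9 were thus 0.28 and -0.31, from control levels of 0.503 in NZO and 0.804 in C57BL/6J mice. These differences between experiments were not tested.

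Other genes were on more than 1 list with different events. Zfp809 had lower inclusion of another exon after exercise (0.484 in exercised, 0.893 in sedentary mice), and Col7a1 had higher inclusion of another exon there (0.874 and 0.492). Under fasting, Dtnb had another exon of 90 nucleotides with higher inclusion (0.792 under fasting, 0.208 ad libitum), of the same length as the exon listed under caloric restriction. An exon of 41 nucleotides of Dtnb went the other way there (0.241 under fasting, 0.731 ad libitum).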

How the data were processed

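Total RNA of skeletal muscle was sequenced, and splicing was analysed by the authors with Whippet and rMATS, per the labels' design text. Coordinates follow mm10, as the submitters' processing notes state. The sources used here do not give read depth, tool versions or the way samples were combined. The authors deposited 1 table with, per the file headers, a fraction (the inclusion level) for each group, a difference as a score, a probability score and a class of confidence. That difference is ad libitum minus caloric restriction (largest gap to the levels 1e-05), and its sign was turned here. No test over mice was possible.

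Counts, medians and exact (Clopper-Pearson) 95% binomial intervals were computed with Python 3.11.15, pandas 2.3.3 and scipy 1.17.1, and the counting was tested on simulated data. The intervals cover listed events, not mice. Length is end minus start plus 1. Symbols were matched to a RefSeq table of GRCm38.p6 (101 of 102). No listed stretch overlapped any of 1005 microRNA hairpins in RefSeq.

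The comparison and the gene lists were chosen with earlier results of these data known. Named were the 6 largest differences of each type in each direction, the members of the lists, genes with more than 1 event, shared events, the shortest and longest stretch of each type and the 3 events nearest to the limit of 0.2: 83 events. Alternatives were a probability of at least 0.95, a difference of at least 0.3, confidence class 1, no Neb, 1 event per gene, another length rule and any overlap as shared. A few members are not reported here by name and are left out of the plots by gene, while the counts include them.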

Additional observations from a re-analysis of the deposited data

How the results depend on the processing

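Of 43 values recomputed under other settings, 35 stayed close and 8 moved. The rule for close was wide: a fall from 114 to 77 events at a difference of at least 0.3 counted as close. So did a fall from 3 to 2 events shared with exercise in confidence class 1. With a probability of at least 0.95, 48 of the 114 events were left, 28 of the 43 events of the gene lists, 5 of the 10 shared with fasting and 0 of the 3 shared with exercise. With a difference of at least 0.3, 26 list events and 1 event shared with exercise were left. With confidence class 1 alone, 6 events shared with fasting were left. These settings keep fewer events by construction. With length as end minus start, 16.7% of skipped exons were a multiple of 3 in place of 70.0%. The splice letters at 4 of 4 ends follow the counting used, but most of them were read at the listed end position. Only the 3' end of the Rnf146 exon was read at a listed start. For a shifted start, the letters thus rest on that exon alone. The share of higher events was 46.8% at a difference of at least 0.3, 48.0% with 1 event per gene, 48.6% without Neb, 51.0% in class 1 and 58.3% at a probability of at least 0.95, on either side of an even division. Leaving out single mice could not be run on levels per group. No paired analysis was possible because mice carry no pairing in the labels and levels exist for whole groups only. Unknown read depth limits every level, those near 0 included.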
